A study of Gallus gallus with 8 samples.

Results

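The genes described here encode carriers that move sugars, myo-inositol, amino acids, monocarboxylates such as lactate, and related solutes across membranes. They were taken by name, as every gene of the RPKM table with a symbol of 1 of 10 solute carrier (SLC) families. These are SLC1, SLC2, SLC3, SLC5, SLC6, SLC7, SLC16, SLC36, SLC38 and SLC43. This rule gave 74 of the 14642 genes in the table, of which 72 are described. The members were chosen with earlier results of these data known. RNA-Seq was performed on dorsal skin of untreated White leghorn chicken embryos, at Hamburger and Hamilton (H&H) stage 35 (embryonic day 9) and at H&H 31 (embryonic day 7), with epithelium and mesenchyme separated before RNA extraction. The stages are called E9 and E7 below. The 4 groups (E9 mesenchyme, E7 mesenchyme, E9 epithelium and E7 epithelium) hold 2 libraries each, which the labels call batch I and batch II. How many embryos went into a library, and their sex, is not given in the sources used here. The study used these libraries to look for channel genes whose level changed while feather buds formed, and the carriers were measured in the same table.

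Solute carriers do not hydrolyse ATP. They let a solute run down its own gradient, couple it to sodium or protons, or exchange it for another solute, so the same family can load a cell or unload it. In growing tissue they bring in glucose and the amino acids used for protein synthesis, export the lactate that glycolysis leaves behind, and hold cell volume through osmolytes such as taurine and myo-inositol. Several SLC7 carriers are light chains that reach the membrane only when paired with a heavy chain, SLC3A1 or SLC3A2. No gene of the RPKM table is named SLC3A2, so it is not analysed here. Feather buds form from an epithelium that thickens into placodes over condensing mesenchyme, and the epithelium goes on to make keratins while melanocytes enter it.

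Each library held between 22050712 and 33620383 alignments, and values are RPKM, read numbers scaled to transcript length and library size, with no read counts per gene, so the precision of a level is its spread between 2 libraries. All 6 epithelial marker genes that were measured were lower in mesenchyme, with a summed level of 25.9 and 22.4 RPKM in E9 mesenchyme, 5.62 and 9.94 in E7 mesenchyme, 1633 and 1456 in E9 epithelium and 449 and 651 in E7 epithelium. All 6 mesenchymal markers were higher in mesenchyme, with a summed level of 3344 and 2901 RPKM at E9 and 3311 and 3222 RPKM at E7. In epithelium they summed to 441 and 469 RPKM at E9 and 635 and 561 RPKM at E7. There COL1A2, a collagen chain, stood at 369 and 394 RPKM at E9. In epithelium 2 of the 6 were called lower at E9 than at E7, where 15.9% of all genes fell. The part of mesenchymal RNA in the carrier levels of epithelium was not tested. Endothelial markers (5 genes) summed to 142 and 127 RPKM in E9 mesenchyme, 69 and 73.4 RPKM in E7 mesenchyme and under 1 RPKM in every epithelial library. In mesenchyme 4 of 5 were called higher at E9, where 18.2% of all genes rose. Smooth muscle and pericyte markers summed to 79 and 63 RPKM in E9 mesenchyme and 17.4 and 17.9 RPKM in E7 mesenchyme, with 3 of 4 called higher. Both counts changed when some libraries were left out. The part of both cell types in the carrier levels of mesenchyme was not tested. Melanocyte markers (5 genes) summed to 327 and 380.4 RPKM in E9 epithelium and 234 and 172 RPKM in E7 epithelium. The library E9 mesenchyme I stood apart in striated muscle markers, which summed to 32.3 and 6.65 RPKM in batch I and II of E9 mesenchyme and lay between 3.07 and 5.88 RPKM in the other 6 libraries. Macrophage markers (6 genes) summed to 77.7 and 41.9 RPKM in E9 mesenchyme and 47.4 and 40.4 RPKM in E7 mesenchyme, and were the higher in E9 mesenchyme I too. In bulk tissue of this kind, fewer cells of a type and less RNA per cell cannot be told apart.

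Both tissues held a broad and unequal set of carriers. Of the 72 genes, 45 reached 1 RPKM in at least 2 libraries and were tested, 28 of them reached 1 RPKM in all 8 libraries, and 22 reached it in none. The other 17 tested genes fell short of 1 RPKM in at least 1 library, so those that passed only through the group where they were high had to differ between groups. Among them, SLC1A1, SLC5A1, SLC5A11, SLC6A11, SLC16A4 and SLC38A11 reached 1 RPKM in 1 tissue only, and SLC36A4 in E7 mesenchyme only. The summed level of these 72 carriers was 366 and 375 RPKM in E9 mesenchyme, 369 and 355 RPKM in E7 mesenchyme, 443 and 505 RPKM in E9 epithelium and 417 and 409.8 RPKM in E7 epithelium. The 6 most abundant genes made up 45% of that sum in E9 mesenchyme, 49.1% in E7 mesenchyme, 51.9% in E9 epithelium and 54.2% in E7 epithelium. The neutral amino acid carrier SLC38A2 led E9 mesenchyme with a mean of 51.1 RPKM, E7 mesenchyme with 60.1 RPKM and E9 epithelium with 61.9 RPKM, and its neighbour SLC38A1 led E7 epithelium with 55.2 RPKM. RPKM is scaled to transcript length, and these levels are set side by side between genes on that basis. The gene models behind these lengths were not checked.

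The plot of summed levels by family shows where the weight lay. The SLC38 family summed to 134 and 141 RPKM in E9 mesenchyme, 161 and 158 RPKM in E7 mesenchyme, 161 and 191 RPKM in E9 epithelium and 187 and 186 RPKM in E7 epithelium. The reported SLC16 genes summed to 31.6 and 30.5 RPKM in E9 mesenchyme and 33.1 and 29.8 RPKM in E7 mesenchyme, against 67 and 65.7 RPKM in E9 epithelium and 68.1 and 59.8 RPKM in E7 epithelium, with SLC16A1 the main epithelial source. The reported SLC6 genes stood higher at the later stage in both tissues, at 70.0 and 68.9 RPKM in E9 mesenchyme against 40.5 and 44.3 RPKM in E7 mesenchyme, and at 77.3 and 83.6 RPKM in E9 epithelium against 45.4 and 50.0 RPKM in E7 epithelium. These sums are descriptions with no test.

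**Figure D1:**
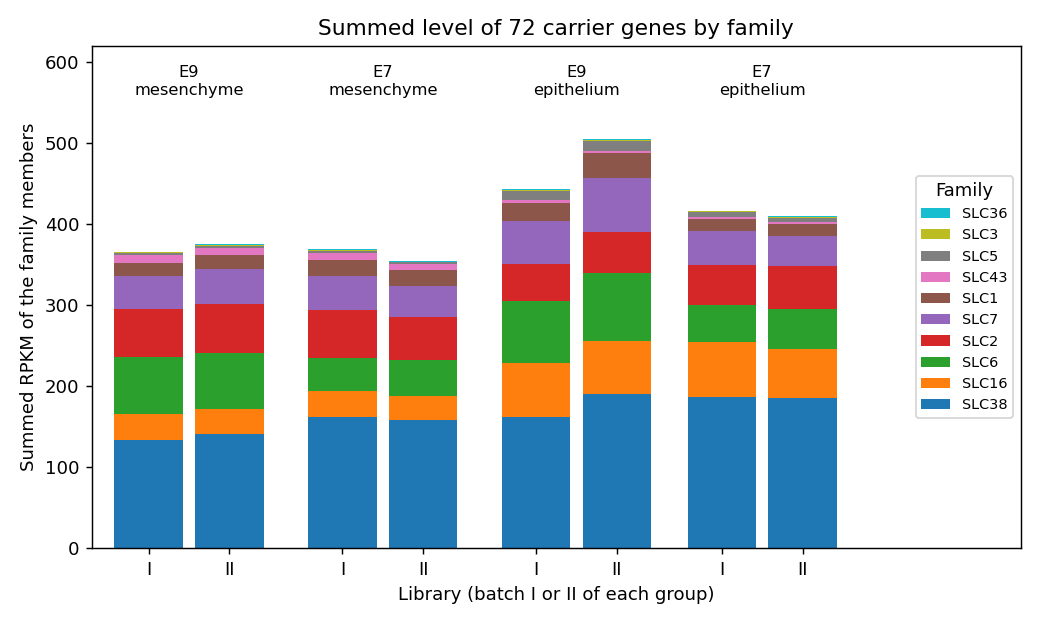
Stacked bars give the summed RPKM (vertical axis) of the reported members of each family in each of the 8 libraries, with batch I and II of each group side by side. The SLC16 segment is taller in the 4 epithelial libraries (59.8 to 68.1 RPKM) than in the 4 mesenchymal ones (29.8 to 33.1 RPKM), and the whole bar is tallest in E9 epithelium II (505 RPKM).

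Differences were tested as differences of mean log2(RPKM + 1) with limma over 11155 genes, with the Benjamini-Hochberg adjusted p under 0.05 called. On this scale changes of genes near or under 1 RPKM are understated. In epithelium, 14 of the 45 tested carriers were higher at E9 than at E7 and 8 were lower, where 18.6% of all genes rose and 15.9% fell. With every library scaled to the same RPKM sum (equal sum scaling) 8 rose, and with median-ratio scaling 10 rose. Of all genes, 3774 of 11154 and 3805 of 11144 were then called in either direction, with rises not counted apart. The RPKM sums were 367121 and 351111 in E9 epithelium, against 326385 and 335554 in E7 epithelium. In mesenchyme 11 rose and 9 fell, where 18.2% of all genes rose and 21.6% fell. The median size of the log2 change over the carriers, ignoring sign, was 0.38 in epithelium and 0.32 in mesenchyme, against 0.23 and 0.26 over all genes tested. Between tissues, 13 carriers were higher and 18 lower in mesenchyme than in epithelium at E9 (29.1% and 37.1% of all genes), and 14 were higher and 18 lower at E7 (29.7% and 27.7% of all genes). The median size of that difference was 0.77 at E9 and 0.56 at E7, against 0.49 and 0.39 over all genes. The stage change differed between the tissues in 17 carriers, 6 with the larger value in mesenchyme and 11 with the larger value in epithelium (19.4% and 23.0% of all genes), with a median size of 0.40 against 0.39 over all genes. The percentages of carriers called higher and lower were 31.1% and 17.8% in epithelium, 24.4% and 20.0% in mesenchyme, 28.9% and 40.0% between tissues at E9, 31.1% and 40.0% at E7, and 13.3% and 24.4% for the difference of stage changes. Over the 28 carriers at 1 RPKM or more in all 8 libraries, which no low group brought in, these shares were 39.3% and 21.4% in epithelium, 25% and 17.9% in mesenchyme, 28.6% and 39.3% between tissues at E9, 32.1% and 32.1% at E7, and 10.7% and 28.6% for the difference of stage changes. Their median size between tissues was 0.68 at E9 and 0.50 at E7. The values over all genes come from the looser filter of 1 RPKM in at least 2 libraries. None were computed over all genes at 1 RPKM in all 8 libraries, so the 28 carriers have no like background. All these shares and medians are descriptions with no test.

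The stage counts changed when a library was left out. Leaving a library out leaves its group without a replicate, and fewer of all genes tested were then called in that group's stage comparison too. The 14 rises in epithelium were 7 without E7 epithelium II and 9 without E9 epithelium II, and the 8 falls were 5 without either E7 epithelium library. The 11 rises in mesenchyme were 6 without either E7 mesenchyme library, and the 9 falls were 5 without E7 mesenchyme I. Without E9 mesenchyme I, the library with muscle markers, 7 carriers rose and 6 fell in mesenchyme. Of the 122 calls over the 5 comparisons, 85 were kept in every alternative setting. Each call named below that was not is given with the left-out libraries and the settings that ended it. A library outside a comparison enters its test only through the shared variance, the filter and the adjustment. Leaving such a library out did not change the log2 value.

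**Figure D2:**
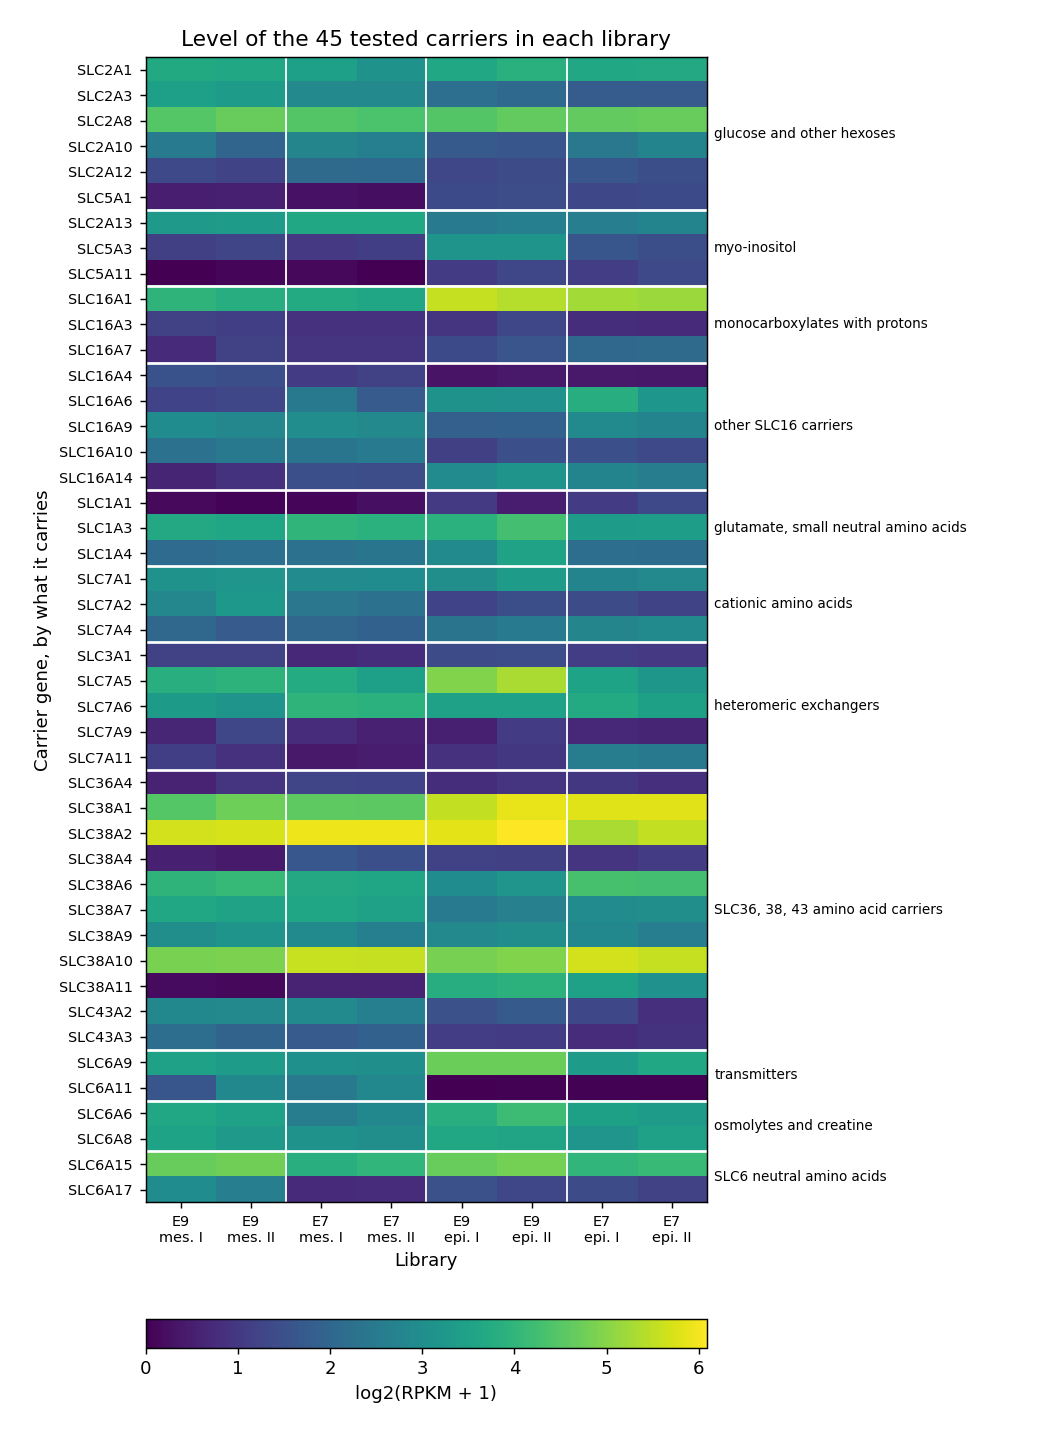
Rows are the 45 tested carriers, grouped by what they carry, and columns are the 8 libraries (mes., mesenchyme; epi., epithelium). Colour gives log2(RPKM + 1). SLC38A2 is bright in all 8 libraries, and SLC16A1, SLC38A1 and SLC38A11 are brighter in all 4 epithelial libraries than in any mesenchymal one.

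Facilitative glucose carriers of the SLC2 family were present in both tissues and shifted little in sum, with the clearest tissue difference in SLC2A3. SLC2A8, a carrier found mostly on intracellular vesicles, had the highest mean of the family, at 21.4 and 24.7 RPKM in E9 mesenchyme, 20.9 and 19.4 RPKM in E7 mesenchyme, 21.1 and 23.8 RPKM in E9 epithelium and 23.8 and 24.7 RPKM in E7 epithelium. It was called in none of the 5 comparisons, but its small difference between E7 mesenchyme and E7 epithelium was called in 8 alternatives (log2 difference -0.25 to -0.28, adjusted p between 0.0159 and 0.0497). These were a replicate block, a block within stage, quantile normalization, a fit of only the libraries compared, and leaving out any 1 of the E9 libraries. With the block within stage its difference of stage changes was called too (log2 difference 0.29, adjusted p = 0.0448). SLC2A1, the basal glucose carrier of many cell types, measured 12.1 and 11.5 RPKM in E9 mesenchyme, against 9.86 and 7.70 RPKM in E7 mesenchyme. Its change in mesenchyme passed the test (log2 change 0.39 ± 0.13, adjusted p = 0.0386), but the call was lost without E7 epithelium I or II, E7 mesenchyme II or E9 mesenchyme I or II (adjusted p between 0.0557 and 0.253, log2 as small as 0.23) and with no filter or a replicate block (adjusted p = 0.0695 and 0.0503). In epithelium SLC2A1 measured 11.3 and 13.7 RPKM in E9 epithelium, against 11.5 and 11.8 RPKM in E7 epithelium, a change that did not pass the test (adjusted p = 0.633).

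SLC2A3, a high-affinity glucose carrier in mammals, was higher in mesenchyme at both stages. It measured 9.83 and 9.35 RPKM in E9 mesenchyme, against 3.70 and 3.20 RPKM in E9 epithelium (log2 difference 1.25 ± 0.11, adjusted p = 8.03e-06), and 6.24 and 6.35 RPKM in E7 mesenchyme, against 2.41 and 2.38 RPKM in E7 epithelium (log2 difference 1.10 ± 0.11, adjusted p = 2.08e-05). The 4 mesenchymal libraries all lay above the 4 epithelial ones. It also rose with stage in mesenchyme by 1.52 times in mean RPKM (log2 change 0.54 ± 0.11, adjusted p = 0.00428). Its smaller rise in epithelium (log2 change 0.39 ± 0.11, adjusted p = 0.0214) was lost without E7 epithelium I or II or E9 epithelium I (adjusted p = 0.0868, 0.0929 and 0.125) and with equal sum scaling or a fit of only the libraries compared (adjusted p = 0.0582 and 0.0529). The RefSeq gene table for the GRCg7b assembly lists this name as a synonym of SLC2A14.

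SLC2A10 fell in epithelium and SLC2A12 in mesenchyme. SLC2A10, the carrier affected in human arterial tortuosity syndrome, measured 2.29 and 2.07 RPKM in E9 epithelium, against 4.44 and 5.69 RPKM in E7 epithelium, a called fall (log2 change -0.92 ± 0.19, adjusted p = 0.00487). The stages did not overlap. In mesenchyme it measured 4.79 and 2.95 RPKM in E9 mesenchyme, against 5.87 and 5.18 RPKM in E7 mesenchyme, which did not pass the test (adjusted p = 0.0854) but did without E9 mesenchyme I (log2 change -0.72, adjusted p = 0.012). SLC2A12 measured 1.52 and 1.39 RPKM in E9 mesenchyme, against 3.33 and 3.22 RPKM in E7 mesenchyme (log2 change -0.80 ± 0.12, adjusted p = 0.000901). In epithelium it had 1.46 and 1.68 RPKM in E9 epithelium and 2.08 and 1.76 RPKM in E7 epithelium, and its stage change there did not pass the test (adjusted p = 0.27).

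The sodium-coupled glucose carrier SLC5A1, best known from gut and kidney, was an epithelial gene of low level, with 1.56 and 1.69 RPKM in E9 epithelium and 1.49 and 1.56 RPKM in E7 epithelium. In mesenchyme it had 0.416 and 0.448 RPKM in E9 mesenchyme and 0.229 and 0.173 RPKM in E7 mesenchyme. It was lower in mesenchyme at both stages (log2 differences -0.88 and -1.07). Only epithelial libraries reached 1 RPKM, so some difference between tissues was set by the filter. The fructose carrier SLC2A5 reached 1 RPKM in 1 library only, with 1.08 and 0.805 RPKM in E9 mesenchyme, 0.229 and 0.190 RPKM in E7 mesenchyme, 0.607 and 0.489 RPKM in E9 epithelium and 0.304 and 0.199 RPKM in E7 epithelium, and was not tested. Beside these carriers, 7 of 8 measured genes for glucose capture and lactate were tested, with 2 rises and no fall in epithelium, and 2 rises and 4 falls in mesenchyme. Over all genes, 18.6% rose in epithelium and 15.9% fell. In mesenchyme these shares were 18.2% and 21.6%. With a library left out, 1 or 2 rose in each tissue, and 3 or 4 fell in mesenchyme. LDHA, a subunit of lactate dehydrogenase, measured 80.6 and 113 RPKM in E9 epithelium, against 10.5 and 9.15 RPKM in E7 epithelium (log2 change 3.16 ± 0.15, adjusted p = 2.02e-06). In mesenchyme it measured 84.1 and 83 RPKM in E9 mesenchyme, against 154 and 133 RPKM in E7 mesenchyme (log2 change -0.77 ± 0.15, adjusted p = 0.0035). LDHB, the other main subunit, measured 257 and 223 RPKM in E9 mesenchyme, against 1100 and 1139 RPKM in E7 mesenchyme (log2 change -2.22 ± 0.11, adjusted p = 2.06e-06). Red cell markers (3 genes) also fell there in 2 cases, with a sum of 18.4 and 19.1 RPKM in E9 mesenchyme and 106 and 125 RPKM in E7 mesenchyme, and their part in the lactate dehydrogenase levels was not tested.

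The myo-inositol carriers showed one of the largest epithelial changes of the set. SLC5A3, the sodium-coupled carrier that mammalian cells raise in hypertonic medium, measured 7.90 and 7.92 RPKM in E9 epithelium, against 2.11 and 1.75 RPKM in E7 epithelium. Both E9 libraries lay more than 5 RPKM above both E7 libraries, and the ratio of means was 4.10 (log2 change 1.61 ± 0.12, adjusted p = 2.31e-05). In mesenchyme it stayed low, at 1.21 and 1.43 RPKM in E9 mesenchyme and 1.0 and 1.17 RPKM in E7 mesenchyme (adjusted p = 0.361), and the stage changes of the tissues differed by -1.46 on the log2 scale (adjusted p = 0.000256). At E9 it was lower in mesenchyme than in epithelium (log2 difference -1.94 ± 0.12, adjusted p = 1.01e-06). At E7 the difference was smaller (log2 difference -0.49 ± 0.12, adjusted p = 0.00765), and that call was lost without E7 epithelium I or E7 mesenchyme I (adjusted p = 0.0671 and 0.0582).

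SLC2A13, a proton-coupled myo-inositol carrier, had the opposite tissue preference. It measured 8.88 and 9.35 RPKM in E9 mesenchyme, against 4.69 and 5.15 RPKM in E9 epithelium (log2 difference 0.77 ± 0.10, adjusted p = 0.000138), and 11.6 and 11.6 RPKM in E7 mesenchyme, against 5.06 and 5.71 RPKM in E7 epithelium (log2 difference 0.98 ± 0.10, adjusted p = 3.39e-05). Its stage fall in mesenchyme (log2 change -0.32 ± 0.10, adjusted p = 0.037) was lost without E7 mesenchyme I or II or E9 mesenchyme I or II (adjusted p between 0.0672 and 0.141) and with equal sum scaling or median-ratio scaling (adjusted p = 0.0928 and 0.0607). Within a library, SLC5A3 RPKM divided by SLC2A13 RPKM was 0.136 and 0.153 in E9 mesenchyme, 0.0860 and 0.102 in E7 mesenchyme, 1.69 and 1.54 in E9 epithelium and 0.416 and 0.307 in E7 epithelium. The third carrier, SLC5A11, was seen in epithelium at 1.12 and 1.45 RPKM at E9 and 1.17 and 1.53 RPKM at E7, and stayed under 0.1 RPKM in all 4 mesenchymal libraries.

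Lactate and pyruvate carriers were mostly epithelial. SLC16A1, the widespread proton-coupled lactate carrier, measured 14.5 and 12.9 RPKM in E9 mesenchyme, against 45.8 and 41.8 RPKM in E9 epithelium (log2 difference -1.61 ± 0.09, adjusted p = 5.72e-07), and 12.3 and 11.2 RPKM in E7 mesenchyme, against 36.7 and 34.9 RPKM in E7 epithelium (log2 difference -1.53 ± 0.09, adjusted p = 7.9e-07). No mesenchymal library reached 15 RPKM and no epithelial library fell under 34 RPKM. Its small rise with stage in epithelium (log2 change 0.28 ± 0.09, adjusted p = 0.0424) was lost without E7 epithelium I or II, E7 mesenchyme I or II or E9 epithelium I (adjusted p between 0.0559 and 0.203) and with no filter, equal sum scaling, quantile normalization, median-ratio scaling or no trend of the variance prior (adjusted p between 0.0539 and 0.179, log2 as small as 0.17). SLC16A7, a higher-affinity pyruvate and lactate carrier, measured 1.56 and 2.06 RPKM in E9 epithelium, against 3.18 and 3.30 RPKM in E7 epithelium. Its fall in epithelium (log2 change -0.60 ± 0.16, adjusted p = 0.0185) was lost without E7 epithelium I or II or E9 epithelium I (adjusted p = 0.0736, 0.0885 and 0.124). In mesenchyme it had 0.690 and 1.26 RPKM in E9 mesenchyme and 0.908 and 0.907 RPKM in E7 mesenchyme (adjusted p = 0.886). SLC16A3, the carrier that exports lactate from glycolytic cells, stayed low at 1.28 and 1.19 RPKM in E9 mesenchyme, 0.824 and 0.822 RPKM in E7 mesenchyme, 0.898 and 1.45 RPKM in E9 epithelium and 0.750 and 0.664 RPKM in E7 epithelium. It was called in none of the 5 comparisons. With quantile normalization it was called higher in E9 than in E7 epithelium (log2 change 0.43, adjusted p = 0.0303), as it was without E9 epithelium I (log2 change 0.52). BSG (basigin), the membrane chaperone of SLC16A1 and SLC16A3, measured 128 and 109 RPKM in E9 mesenchyme, against 150.3 and 151 RPKM in E9 epithelium (log2 difference -0.35 ± 0.09, adjusted p = 0.00589), a call lost with quantile normalization (log2 difference -0.05, adjusted p = 0.535). None of the 3 chaperone genes measured was called for stage in either tissue, but 1 fell in epithelium without E9 epithelium II.

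Other SLC16 carriers separated the tissues in both directions. SLC16A14, whose solute is not settled, measured 0.544 and 0.845 RPKM in E9 mesenchyme, against 6.68 and 7.93 RPKM in E9 epithelium (log2 difference -2.29 ± 0.14, adjusted p = 7.57e-07), and 1.79 and 1.70 RPKM in E7 mesenchyme, against 5.73 and 5.03 RPKM in E7 epithelium (log2 difference -1.21 ± 0.14, adjusted p = 5.91e-05). It fell with stage in mesenchyme (log2 change -0.70 ± 0.14, adjusted p = 0.00394), and the epithelial change did not pass the test (log2 change 0.38 ± 0.14, adjusted p = 0.0624). The epithelial change passed with quantile normalization or no trend of the variance prior (adjusted p = 0.0461 and 0.0476). It also passed without E9 mesenchyme I or II, with the log2 change still 0.38. SLC16A6, which exports ketone bodies from the liver in zebrafish, measured 1.34 and 1.45 RPKM in E9 mesenchyme, against 7.54 and 7.40 RPKM in E9 epithelium (log2 difference -1.82 ± 0.24, adjusted p = 0.000146), and 4.52 and 2.38 RPKM in E7 mesenchyme, against 12.9 and 8.14 RPKM in E7 epithelium (log2 difference -1.38 ± 0.24, adjusted p = 0.00102). Batch I stood above batch II in both E7 groups. Its fall in mesenchyme (log2 change -0.85 ± 0.24, adjusted p = 0.0226) was lost without E7 mesenchyme I or E9 mesenchyme I or II (adjusted p = 0.16, 0.0763 and 0.0578, log2 as small as -0.50) and with no filter (adjusted p = 0.064).

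SLC16A9, which carries carnitine in human cells, fell in epithelium. It measured 2.63 and 2.68 RPKM in E9 epithelium, against 6.38 and 5.70 RPKM in E7 epithelium (log2 change -0.94 ± 0.11, adjusted p = 0.00029), whereas mesenchyme held 6.74 and 6.05 RPKM in E9 mesenchyme and 6.93 and 6.32 RPKM in E7 mesenchyme (adjusted p = 0.786). The difference between these stage changes was itself called (log2 difference 0.90 ± 0.16, adjusted p = 0.00207). SLC16A10, a carrier of aromatic amino acids, was higher in mesenchyme at both stages and called for stage in neither tissue. It measured 3.83 and 4.51 RPKM in E9 mesenchyme, against 1.23 and 1.78 RPKM in E9 epithelium (log2 difference 1.05 ± 0.15, adjusted p = 0.000198), and 4.16 and 4.81 RPKM in E7 mesenchyme, against 1.78 and 1.53 RPKM in E7 epithelium (log2 difference 1.05 ± 0.15, adjusted p = 0.000244). SLC16A4, whose solute is not settled, was higher in mesenchyme too, with levels of at most 1.87 RPKM in mesenchyme and 0.345 RPKM in epithelium. It passed the filter through mesenchyme alone, so some difference between tissues was set by the filter. Its small rise with stage in mesenchyme (log2 change 0.34 ± 0.12, adjusted p = 0.0464) was lost without E7 epithelium I or II, E7 mesenchyme I or II, E9 epithelium I or II or E9 mesenchyme I or II (adjusted p between 0.0548 and 0.21) and with a pseudocount of 0.1, a pseudocount of 0.5, quantile normalization, a replicate block or a fit of only the libraries compared (adjusted p between 0.06 and 0.369, log2 as small as 0.13).

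Among carriers of glutamate and small neutral amino acids, 2 of 3 tested SLC1 genes rose in epithelium and none was called in mesenchyme. Over all genes, 18.6% rose in epithelium, and in mesenchyme 18.2% rose and 21.6% fell. SLC1A4, which exchanges alanine, serine and cysteine, measured 6.58 and 10.4 RPKM in E9 epithelium, against 3.57 and 3.42 RPKM in E7 epithelium. The E9 libraries differed from each other but both lay above both E7 libraries (log2 change 1.05 ± 0.18, adjusted p = 0.0019). In mesenchyme it held 3.34 and 3.67 RPKM in E9 mesenchyme and 3.81 and 4.16 RPKM in E7 mesenchyme (adjusted p = 0.544), and the stage changes differed by -1.20 (adjusted p = 0.00493). SLC1A3, a glutamate and aspartate carrier known from glia, measured 13.9 and 18.1 RPKM in E9 epithelium, against 9.09 and 9.58 RPKM in E7 epithelium (log2 change 0.71 ± 0.12, adjusted p = 0.00235). In mesenchyme it had 11.8 and 10.9 RPKM in E9 mesenchyme and 14.8 and 13.8 RPKM in E7 mesenchyme, a change that did not pass the test (log2 change -0.31 ± 0.12, adjusted p = 0.0758). That change passed with a fit of only the libraries compared (adjusted p = 0.0488). It also passed without E9 epithelium I or II, with the log2 change still -0.31.

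SLC1A3 thereby changed sides between stages. At E9 it was lower in mesenchyme (log2 difference -0.46 ± 0.12, adjusted p = 0.0098), and at E7 it was higher in mesenchyme (log2 difference 0.57 ± 0.12, adjusted p = 0.00371). The E9 call was lost without E9 epithelium II or E9 mesenchyme II (adjusted p = 0.065 and 0.0503, log2 as small as -0.28) and with equal sum scaling (adjusted p = 0.0507). SLC1A1, the neuronal and epithelial glutamate carrier, stood at 1.05 and 0.382 RPKM in E9 epithelium and 1.13 and 1.53 RPKM in E7 epithelium, with no mesenchymal library above 0.19 RPKM.

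SLC7A5 (also called LAT1) rose in epithelium. This light chain exchanges large neutral amino acids such as leucine for glutamine, and its heavy chain partner is SLC3A2. It measured 29.4 and 39 RPKM in E9 epithelium, against 10.7 and 8.35 RPKM in E7 epithelium, a ratio of means of 3.60 (log2 change 1.74 ± 0.16, adjusted p = 8.08e-05). Its log2 change was above that of SLC5A3 with a pseudocount of 1 (1.74 and 1.61) but below it with a pseudocount of 0.1 (1.83 and 1.99). The 2 stages did not overlap. In mesenchyme it measured 13.1 and 14.4 RPKM in E9 mesenchyme, against 12.5 and 9.84 RPKM in E7 mesenchyme, which did not pass the test (adjusted p = 0.206), and the stage changes differed by -1.46 (adjusted p = 0.00125). At E9 it was lower in mesenchyme than in epithelium (log2 difference -1.25 ± 0.16, adjusted p = 0.000136), and at E7 the tissues did not pass the test (log2 difference 0.21 ± 0.16, adjusted p = 0.3).

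SLC7A6, which exchanges cationic for neutral amino acids, fell in mesenchyme. It measured 8.94 and 7.89 RPKM in E9 mesenchyme, against 14.5 and 13.8 RPKM in E7 mesenchyme (log2 change -0.69 ± 0.11, adjusted p = 0.00147), and 10.1 and 10.3 RPKM in E9 epithelium, against 12.3 and 10.1 RPKM in E7 epithelium (adjusted p = 0.466). Within a library, SLC7A5 RPKM divided by SLC7A6 RPKM was 1.47 and 1.82 in E9 mesenchyme, 0.863 and 0.713 in E7 mesenchyme, 2.91 and 3.80 in E9 epithelium and 0.867 and 0.826 in E7 epithelium.

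SLC7A11 (also called xCT), which brings in cystine for glutathione in exchange for glutamate, fell in epithelium and rose in mesenchyme. It measured 0.826 and 0.997 RPKM in E9 epithelium, against 4.89 and 4.47 RPKM in E7 epithelium, so the E7 mean was 5.13 times the E9 mean (log2 change -1.57 ± 0.13, adjusted p = 3.87e-05). In mesenchyme it measured 1.17 and 0.833 RPKM in E9 mesenchyme, against 0.336 and 0.386 RPKM in E7 mesenchyme (log2 change 0.55 ± 0.13, adjusted p = 0.00971). That rise, at levels near 1 RPKM, was lost without E7 mesenchyme I or E9 mesenchyme I (adjusted p = 0.0605 and 0.0513). The difference between the stage changes was 2.12 (adjusted p = 5.22e-05). SLC7A11 is needed for yellow pigment in mouse melanocytes, and 4 of 5 melanocyte markers rose in the epithelium in which it fell. Neuron and Schwann cell markers (7 genes, 6 tested) fell there in 5 cases, where 15.9% of all genes fell. Their summed level was 121 and 122 RPKM in E9 epithelium and 225 and 252 RPKM in E7 epithelium. The count of 5 changed when some libraries were left out. The part of either cell type in the SLC7A11 change was not tested. Of 6 genes for cystine and glutathione metabolism, 1 was called higher in E9 epithelium and 4 were called lower in E9 mesenchyme, each against E7, where 18.6% of all genes were called higher in epithelium and 21.6% lower in mesenchyme. The 4 falls were 2 without E7 mesenchyme I, 1 without E7 mesenchyme II and 2 without E9 mesenchyme II, and the epithelial rise ended without E7 epithelium I or II or E9 epithelium I. A fall in epithelium was called in 1 gene without E9 mesenchyme I or II.

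SLC3A1, the heavy chain of the cystine and dibasic amino acid exchanger, measured 1.30 and 1.27 RPKM in E9 mesenchyme, 0.626 and 0.752 RPKM in E7 mesenchyme, 1.61 and 1.70 RPKM in E9 epithelium and 1.16 and 1.02 RPKM in E7 epithelium. Its light chain SLC7A9 measured 0.572 and 1.45 RPKM in E9 mesenchyme, 0.703 and 0.476 RPKM in E7 mesenchyme, 0.455 and 1.10 RPKM in E9 epithelium and 0.632 and 0.539 RPKM in E7 epithelium, and was called in none of the 5 comparisons. SLC3A1 rose in both tissues. The rise in mesenchyme (log2 change 0.44 ± 0.12, adjusted p = 0.0159) was lost without E7 mesenchyme I (adjusted p = 0.0987) and with quantile normalization or a fit of only the libraries compared (adjusted p = 0.101 and 0.0617, log2 as small as 0.25). The rise in epithelium (log2 change 0.35 ± 0.12, adjusted p = 0.0459) was lost without E7 epithelium I or II, E7 mesenchyme I or II or E9 epithelium I or II (adjusted p between 0.0678 and 0.226) and with a pseudocount of 0.1, equal sum scaling, median-ratio scaling, a replicate block or a fit of only the libraries compared (adjusted p between 0.0557 and 0.102). At E7 SLC3A1 was lower in mesenchyme (log2 difference -0.31 ± 0.12, adjusted p = 0.0462), a call that was lost without E7 epithelium I or II, E7 mesenchyme I or II or E9 epithelium I or II (adjusted p between 0.06 and 0.218) and with a replicate block, a replicate block within stage or a fit of only the libraries compared (adjusted p = 0.0634, 0.0679 and 0.0534).

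Of the cationic amino acid carriers, SLC7A2 marked mesenchyme. This carrier of arginine, lysine and ornithine measured 6.01 and 8.45 RPKM in E9 mesenchyme, against 1.35 and 1.76 RPKM in E9 epithelium (log2 difference 1.68 ± 0.16, adjusted p = 1.75e-05), and 4.30 and 3.95 RPKM in E7 mesenchyme, against 1.62 and 1.38 RPKM in E7 epithelium (log2 difference 1.04 ± 0.16, adjusted p = 0.000479). It rose with stage in mesenchyme (log2 change 0.67 ± 0.16, adjusted p = 0.0107), a call that was lost without E7 mesenchyme II or E9 mesenchyme II (adjusted p = 0.0726 and 0.0554). SLC7A1, the more widespread arginine and lysine carrier, held 7.65 and 8.06 RPKM in E9 mesenchyme, 6.69 and 6.76 RPKM in E7 mesenchyme, 7.12 and 9.27 RPKM in E9 epithelium and 5.67 and 6.27 RPKM in E7 epithelium. Its rise in epithelium (log2 change 0.39 ± 0.13, adjusted p = 0.0415) was lost without E7 epithelium I or II, E7 mesenchyme I or II or E9 epithelium II (adjusted p between 0.0688 and 0.223, log2 as small as 0.22) and with no filter, equal sum scaling, median-ratio scaling or a fit of only the libraries compared (adjusted p between 0.0555 and 0.153). SLC7A4, a related member, was lower in mesenchyme at both stages (log2 differences -0.55 and -0.90), and its fall with stage in epithelium (log2 change -0.41 ± 0.14, adjusted p = 0.0456) was lost without E7 epithelium I or II, E7 mesenchyme I or II or E9 epithelium I or II (adjusted p between 0.0563 and 0.222) and with a pseudocount of 0.1, a pseudocount of 0.5, no filter, quantile normalization or a replicate block (adjusted p between 0.0534 and 0.0792). Of 8 tested genes for arginine and polyamine enzymes, epithelium had 2 rises and 2 falls and mesenchyme had 4 rises and 3 falls. Over all genes, rises and falls made up 18.6% and 15.9% in epithelium. They made up 18.2% and 21.6% in mesenchyme. The 4 rises were 0 without E7 mesenchyme I and 1 without E7 mesenchyme II or E9 mesenchyme I, and the 2 rises in epithelium were 1 without E7 epithelium I or E9 epithelium I. ARG2, an arginase, measured 11.5 and 13.4 RPKM in E9 mesenchyme, against 40.1 and 36.7 RPKM in E7 mesenchyme (log2 change -1.55 ± 0.10, adjusted p = 7.99e-06).

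**Figure D3:**
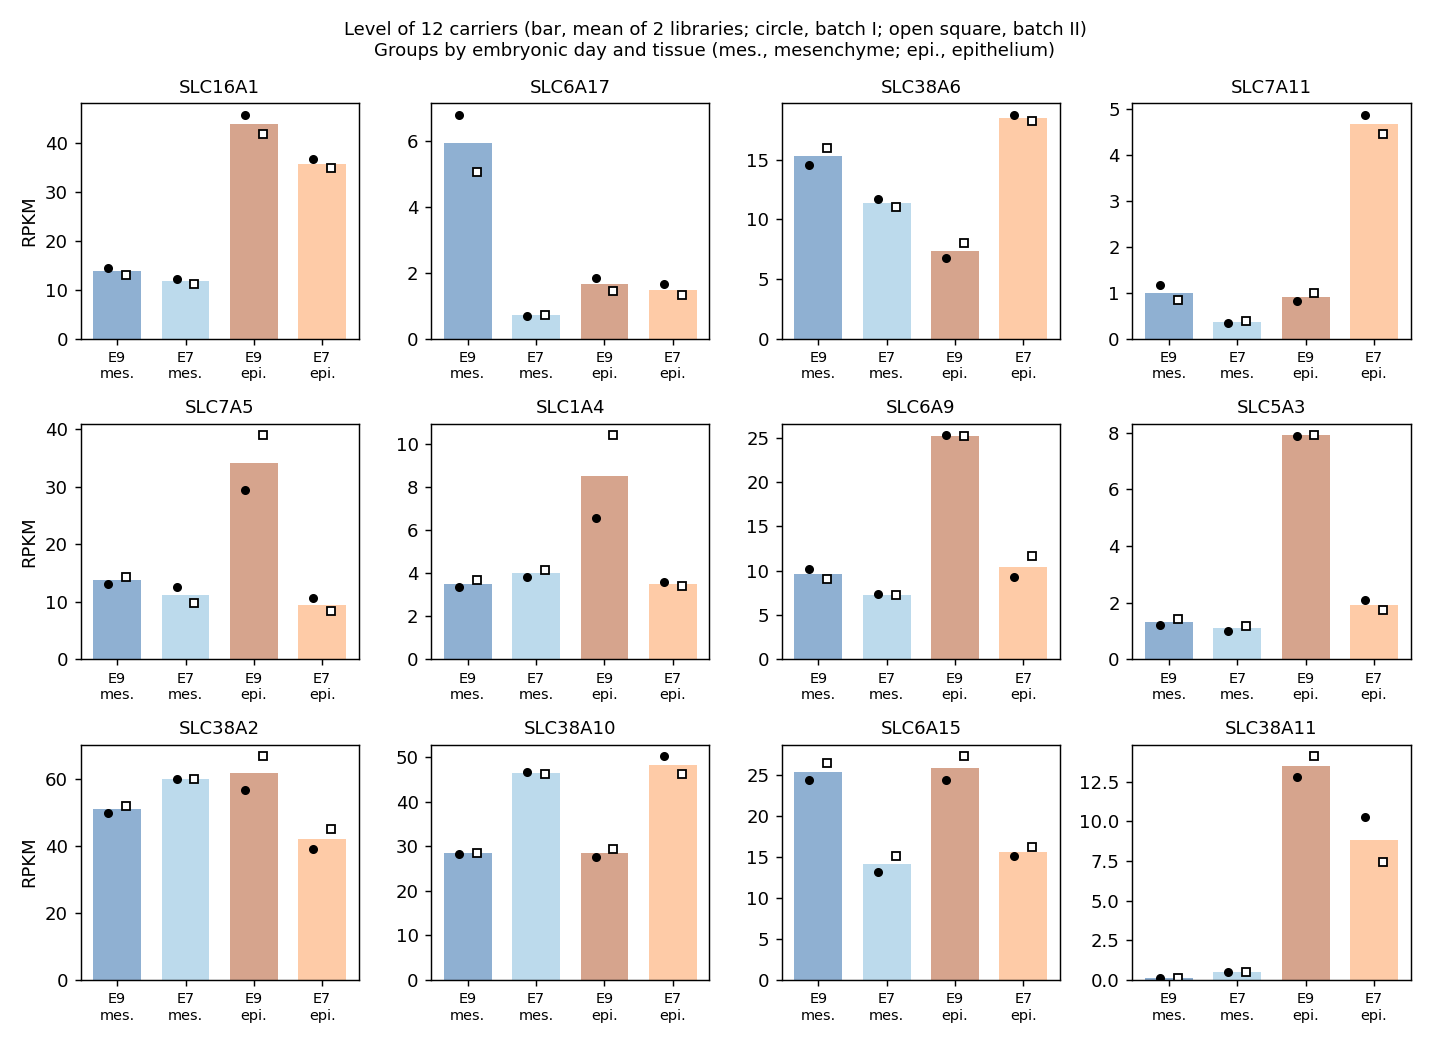
Each panel gives the RPKM of 1 carrier in the 4 groups, with bars for the mean of 2 libraries, filled circles for batch I and open squares for batch II. SLC6A17 is highest in E9 mesenchyme, SLC16A1 is high in epithelium, SLC7A5, SLC1A4, SLC6A9 and SLC5A3 in E9 epithelium, and SLC7A11 in E7 epithelium, while SLC38A10 and SLC6A15 shift in the same direction in both tissues.

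The SLC38 family of sodium-coupled neutral amino acid carriers had the highest sum of the reported members of any of the 10 families in all 4 groups. SLC38A2, a glutamine and alanine carrier that mammalian cells raise when amino acids run short, measured 56.7 and 67.1 RPKM in E9 epithelium, against 39 and 45.1 RPKM in E7 epithelium (log2 change 0.55 ± 0.10, adjusted p = 0.00297). In mesenchyme it had 50.1 and 52.1 RPKM in E9 mesenchyme and 60.1 and 60.1 RPKM in E7 mesenchyme, a change that did not pass the test (log2 change -0.23 ± 0.10, adjusted p = 0.0974). At E9 it was lower in mesenchyme (log2 difference -0.27 ± 0.10, adjusted p = 0.0394), but that call was lost without E7 mesenchyme I or II, E9 epithelium II or E9 mesenchyme I or II (adjusted p between 0.0602 and 0.235, log2 as small as -0.15) and with no filter, equal sum scaling, quantile normalization, median-ratio scaling, a fit of only the libraries compared or no trend of the variance prior (adjusted p between 0.06 and 0.341, log2 as small as -0.13). At E7 it was higher in mesenchyme (log2 difference 0.51 ± 0.10, adjusted p = 0.00197). SLC38A1, a closely related glutamine carrier, was lower in mesenchyme at both stages and called for stage in neither tissue. It measured 21.5 and 25.9 RPKM in E9 mesenchyme, against 45.3 and 58.5 RPKM in E9 epithelium (log2 difference -1.09 ± 0.13, adjusted p = 5.52e-05), and 22.8 and 22.6 RPKM in E7 mesenchyme, against 54.8 and 55.5 RPKM in E7 epithelium (log2 difference -1.25 ± 0.13, adjusted p = 2.66e-05).

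SLC38A10 fell in both tissues. It measured 28.4 and 28.4 RPKM in E9 mesenchyme, against 46.7 and 46.2 RPKM in E7 mesenchyme (log2 change -0.69 ± 0.08, adjusted p = 0.000185), and 27.5 and 29.4 RPKM in E9 epithelium, against 50.3 and 46.3 RPKM in E7 epithelium (log2 change -0.74 ± 0.08, adjusted p = 0.000121). The E9 levels of the tissues, and likewise their E7 levels, lay within 5 RPKM of each other, and neither tissue difference nor the difference of stage changes was called (adjusted p = 0.713).

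SLC38A6 fell in epithelium and rose in mesenchyme. It measured 6.77 and 8.01 RPKM in E9 epithelium, against 18.8 and 18.3 RPKM in E7 epithelium (log2 change -1.22 ± 0.10, adjusted p = 3.96e-05), and 14.6 and 16 RPKM in E9 mesenchyme, against 11.7 and 11.1 RPKM in E7 mesenchyme (log2 change 0.39 ± 0.10, adjusted p = 0.0151). The rise in mesenchyme was lost without E7 mesenchyme I or II or E9 mesenchyme II (adjusted p = 0.051, 0.0937 and 0.0759). The stage changes differed by 1.61 (adjusted p = 5.93e-05), and SLC38A6 was higher in mesenchyme at E9 (log2 difference 0.96 ± 0.10, adjusted p = 3.32e-05) and lower in mesenchyme at E7 (log2 difference -0.66 ± 0.10, adjusted p = 0.000475). The solutes of SLC38A6 and SLC38A10 are less well settled than those of SLC38A1 and SLC38A2.

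SLC38A11, a little studied member, was far lower in mesenchyme at both stages. It measured 0.136 and 0.0927 RPKM in E9 mesenchyme, against 12.8 and 14.1 RPKM in E9 epithelium (log2 difference -3.70 ± 0.15, adjusted p = 5.86e-08), and 0.515 and 0.497 RPKM in E7 mesenchyme, against 10.3 and 7.41 RPKM in E7 epithelium (log2 difference -2.69 ± 0.15, adjusted p = 4.45e-07). With a pseudocount of 0.1 in place of 1 these log2 differences were -5.99 at E9 and -3.86 at E7. SLC38A11 passed the filter through epithelium alone, so some difference between tissues was set by the filter. Its rise with stage in epithelium (log2 change 0.57 ± 0.15, adjusted p = 0.0172) was lost without E7 epithelium II or E9 epithelium II (adjusted p = 0.136 and 0.0857, log2 as small as 0.36) and with a pseudocount of 0.1 or equal sum scaling (adjusted p = 0.0568 and 0.056). All 5 melanocyte markers were likewise lower in mesenchyme at both stages, with the sums given above, and their part in the SLC38A11 level was not tested. SLC38A4, a carrier that also takes cationic amino acids, measured 0.458 and 0.358 RPKM in E9 mesenchyme, against 2.16 and 1.82 RPKM in E7 mesenchyme (log2 change -1.08 ± 0.12, adjusted p = 0.000229). In epithelium it had 1.30 and 1.22 RPKM in E9 epithelium and 0.927 and 1.13 RPKM in E7 epithelium (adjusted p = 0.372). The lysosomal glutamine exporter SLC38A7 was higher in mesenchyme at both stages (log2 differences 1.0 and 0.56), and SLC38A9, the lysosomal arginine sensor of the mTORC1 pathway, was called in none of the 5 comparisons. Of the 10 mTORC1 amino acid sensing genes, SLC38A9 among them, epithelium had 1 rise and mesenchyme 1 rise and 2 falls, where 18.6% of all genes rose in epithelium. Over all genes in mesenchyme, rises made up 18.2% and falls 21.6%. The single rise in mesenchyme was lost without any 1 of the 8 libraries, and that in epithelium without E7 epithelium I or E9 epithelium I, while 2 rose in epithelium without E9 epithelium II. The 2 falls were 1 without E7 mesenchyme II or E9 mesenchyme II.

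The SLC43 and SLC36 genes were few and low. SLC43A2, which lets large neutral amino acids run down their gradient, measured 6.12 and 6.25 RPKM in E9 mesenchyme, against 1.85 and 2.30 RPKM in E9 epithelium (log2 difference 1.23 ± 0.18, adjusted p = 0.000248), and 6.53 and 5.19 RPKM in E7 mesenchyme, against 1.48 and 0.762 RPKM in E7 epithelium (log2 difference 1.71 ± 0.18, adjusted p = 3.39e-05). Its rise with stage in epithelium (log2 change 0.55 ± 0.18, adjusted p = 0.0404) was lost without E7 epithelium II, E7 mesenchyme I or II or E9 epithelium I or II (adjusted p between 0.0525 and 0.26, log2 as small as 0.31) and with no filter, equal sum scaling, median-ratio scaling or a fit of only the libraries compared (adjusted p between 0.0578 and 0.0884). SLC43A3, a purine nucleobase carrier in mammals, was also higher in mesenchyme, by 0.98 at E9 and 0.98 at E7 on the log2 scale. SLC36A4, a carrier of proline and tryptophan, measured 0.531 and 0.929 RPKM in E9 mesenchyme, against 1.42 and 1.35 RPKM in E7 mesenchyme (log2 change -0.47 ± 0.15, adjusted p = 0.0305), a call that was lost without E9 mesenchyme I (adjusted p = 0.154, log2 as small as -0.31) and with a fit of only the libraries compared (adjusted p = 0.0658). In epithelium it had 0.723 and 0.910 RPKM in E9 epithelium and 0.983 and 0.758 RPKM in E7 epithelium. SLC36A4 passed the filter through E7 mesenchyme alone, so some fall from that group was set by the filter.

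In the SLC6 family of sodium and chloride coupled carriers, SLC6A15 rose with stage in both tissues and SLC6A17 in mesenchyme. SLC6A15, which takes up branched-chain amino acids and proline, measured 24.4 and 26.4 RPKM in E9 mesenchyme, against 13.2 and 15.1 RPKM in E7 mesenchyme (log2 change 0.81 ± 0.10, adjusted p = 0.000329), and 24.3 and 27.3 RPKM in E9 epithelium, against 15.1 and 16.2 RPKM in E7 epithelium (log2 change 0.69 ± 0.10, adjusted p = 0.000837). The stages did not overlap in either tissue, and neither tissue difference was called. SLC6A17, a vesicular carrier of neutral amino acids known from neurons, measured 6.81 and 5.05 RPKM in E9 mesenchyme, against 0.685 and 0.722 RPKM in E7 mesenchyme, a ratio of means of 8.43 (log2 change 2.01 ± 0.15, adjusted p = 2.64e-05). In epithelium it held 1.83 and 1.46 RPKM in E9 epithelium and 1.65 and 1.32 RPKM in E7 epithelium (adjusted p = 0.7), and the stage changes differed by 1.92 (adjusted p = 0.0002). It was higher in mesenchyme at E9 (log2 difference 1.38 ± 0.15, adjusted p = 4.54e-05) and lower in mesenchyme at E7 (log2 difference -0.54 ± 0.15, adjusted p = 0.0143). The E7 call was lost without E7 epithelium I or E7 mesenchyme I or II (adjusted p = 0.0965, 0.0688 and 0.0571). Neuron and Schwann cell markers summed to 55.9 and 64.9 RPKM in E9 mesenchyme and 139 and 150.3 RPKM in E7 mesenchyme. Of the 6 tested, 3 fell there and none rose, where 21.6% of all genes fell and 18.2% rose. These counts changed when some libraries were left out, and the part of these markers in the SLC6A17 change was not tested.

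SLC6A9, the glycine carrier GlyT1, rose mainly in epithelium. It measured 25.3 and 25.2 RPKM in E9 epithelium, against 9.24 and 11.6 RPKM in E7 epithelium, a ratio of means of 2.42 (log2 change 1.21 ± 0.12, adjusted p = 8.51e-05). In mesenchyme it measured 10.2 and 9.06 RPKM in E9 mesenchyme, against 7.31 and 7.20 RPKM in E7 mesenchyme (log2 change 0.36 ± 0.12, adjusted p = 0.0343), a rise that was lost without E7 mesenchyme I or II or E9 mesenchyme I (adjusted p = 0.113, 0.132 and 0.15) and with no filter (adjusted p = 0.0555). The rise in epithelium was larger than that in mesenchyme by the test of the difference, mesenchyme minus epithelium (log2 difference -0.84 ± 0.16, adjusted p = 0.0034). At E9 SLC6A9 was lower in mesenchyme (log2 difference -1.31 ± 0.12, adjusted p = 9.71e-06).

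SLC6A11 was a mesenchymal gene. This GABA carrier, known from glia, was listed at 2.10 and 6.13 RPKM in E9 mesenchyme, 4.47 and 6.18 RPKM in E7 mesenchyme, 0 and 0.0214 RPKM in E9 epithelium and 0.0263 and 0.0215 RPKM in E7 epithelium. All 4 mesenchymal libraries lay above 2 RPKM and all 4 epithelial libraries under 0.03 RPKM, at E9 (log2 difference 2.22 ± 0.32, adjusted p = 0.000242) as at E7 (log2 difference 2.61 ± 0.32, adjusted p = 9.95e-05). SLC6A11 passed the filter through mesenchyme alone, so some difference between tissues was set by the filter. The E9 mesenchyme libraries differed from each other in SLC6A11 more than in the other carriers named here. The 7 neuron and Schwann cell markers summed to 55.9 and 64.9 RPKM in these libraries, and their part in the SLC6A11 level was not tested. Without E9 mesenchyme II, SLC6A11 was called lower in E9 than in E7 mesenchyme (log2 change -1.02, adjusted p = 0.0035).

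The taurine carrier rose with stage and the creatine carrier was not called. SLC6A6, the taurine carrier, measured 11.4 and 10.2 RPKM in E9 mesenchyme, against 4.85 and 6.12 RPKM in E7 mesenchyme (log2 change 0.87 ± 0.14, adjusted p = 0.00142), and 13.3 and 17 RPKM in E9 epithelium, against 9.96 and 9.19 RPKM in E7 epithelium (log2 change 0.60 ± 0.14, adjusted p = 0.0102). The epithelial rise was lost without E7 epithelium II or E9 epithelium II (adjusted p = 0.0631 and 0.0634). The test of the difference between these stage changes was not passed (log2 difference 0.27 ± 0.20, adjusted p = 0.308). SLC6A8, the creatine carrier, had 10.6 and 8.70 RPKM in E9 mesenchyme, 7.55 and 7.05 RPKM in E7 mesenchyme, 11.4 and 10.7 RPKM in E9 epithelium and 7.98 and 10.2 RPKM in E7 epithelium. It was called in none of the 5 comparisons. With equal sum scaling or median-ratio scaling it was called higher in E9 than in E7 mesenchyme (adjusted p = 0.0307 and 0.0421). The same call was made without E7 epithelium I or II or E9 mesenchyme II (log2 change 0.36, 0.36 and 0.49). Of 6 genes for creatine, GABA and taurine enzymes, GATM, which starts creatine synthesis, was the only one called in epithelium, with 5.26 and 6.14 RPKM in E9 epithelium, against 19.3 and 17.4 RPKM in E7 epithelium (log2 change -1.53 ± 0.14, adjusted p = 5.6e-05). CDO1, an enzyme of taurine synthesis, measured 29.8 and 23 RPKM in E9 mesenchyme, against 11 and 13.1 RPKM in E7 mesenchyme (log2 change 1.06 ± 0.17, adjusted p = 0.00124), a call lost with a pseudocount of 0.1 (adjusted p = 0.13). Without E9 epithelium II, more genes of the list than GATM fell in epithelium. In mesenchyme 2 genes of this list rose and 2 fell, where 18.2% of all genes rose and 21.6% fell (15.9% fell in epithelium). The rises were 1 without E7 mesenchyme I or E9 mesenchyme I, and the falls were 0 without E7 mesenchyme II and 1 without any other library.

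**Figure D4:**
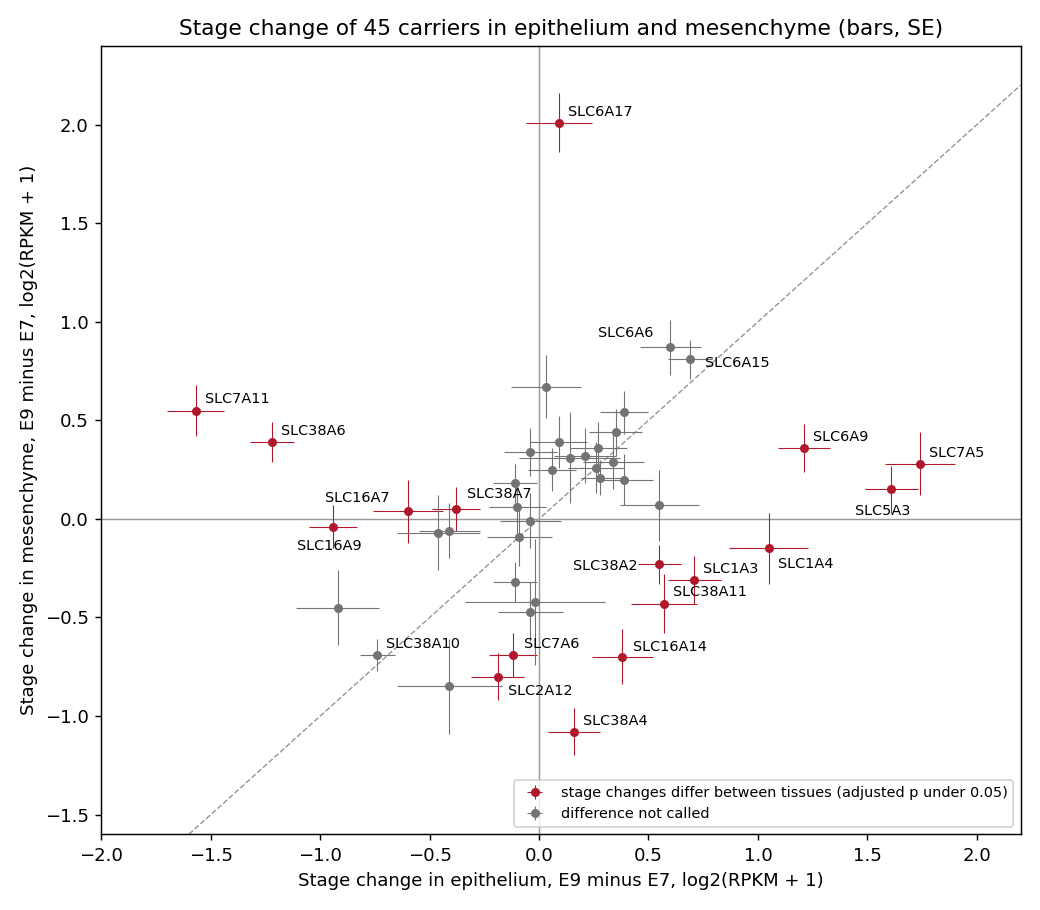
Each point is 1 of the 45 tested carriers, with its stage change (E9 minus E7, log2(RPKM + 1)) in epithelium on the horizontal axis and in mesenchyme on the vertical axis, bars giving the SE and the dashed line equal change. The 17 carriers in red differed between tissues, and SLC7A5 (1.74 in epithelium, 0.28 in mesenchyme) and SLC6A17 (0.09 in epithelium, 2.01 in mesenchyme) lie farthest out along the axes.

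The carriers that rose in epithelium included several that mammalian cells raise through the amino acid response, in which the factor ATF4 turns on genes for amino acid synthesis and uptake. SLC1A4, SLC6A9, SLC7A1, SLC7A5, SLC7A11 and SLC38A2 are commonly counted among its targets in mammals. Of these 6, which were picked with their values known, 5 were called higher in E9 epithelium and SLC7A11 lower. Of 9 other genes of that response that were measured, epithelium had 7 rises and 1 fall. Their median log2 change was 1.25 against 0.02 over all genes tested, of which 18.6% rose and 15.9% fell. These 9, ATF4 itself among them, were also listed with earlier results of these data known. Setting either group of genes beside the shares over all genes is therefore no test. The part of ATF4 in the epithelial changes was not tested. In mesenchyme 3 rose and 2 fell (1 without E7 mesenchyme II), with a median of 0.12 against -0.03 over all genes. Over all genes in mesenchyme, 18.2% rose and 21.6% fell. ASNS, which makes asparagine, measured 26.2 and 28.7 RPKM in E9 epithelium, against 9.14 and 7.45 RPKM in E7 epithelium (log2 change 1.62 ± 0.11, adjusted p = 1.26e-05). CEBPB, a partner factor of ATF4, measured 21.2 and 18 RPKM in E9 epithelium, against 1.60 and 1.55 RPKM in E7 epithelium (log2 change 3.0 ± 0.13, adjusted p = 1.33e-06). PSPH, the last enzyme of serine synthesis, measured 5.64 and 7.13 RPKM in E9 epithelium, against 2.02 and 2.0 RPKM in E7 epithelium (log2 change 1.29 ± 0.14, adjusted p = 0.000156). SESN2 was the gene that fell, with 3.14 and 2.87 RPKM in E9 epithelium, against 7.27 and 6.76 RPKM in E7 epithelium (log2 change -1.0 ± 0.13, adjusted p = 0.000455). ATF4 itself measured 345 and 409 RPKM in E9 epithelium, against 292 and 313 RPKM in E7 epithelium (log2 change 0.31 ± 0.10, adjusted p = 0.0348), a call that was lost without E7 epithelium I or II, E7 mesenchyme I or II or E9 epithelium II (adjusted p between 0.0588 and 0.191, log2 as small as 0.19) and with no filter, equal sum scaling, quantile normalization, median-ratio scaling, a fit of only the libraries compared or no trend of the variance prior (adjusted p between 0.0501 and 0.296, log2 as small as 0.19). The count of rises in epithelium was 6 to 8 when 1 library was left out. The epithelial markers KRT5 and KRT14, keratins of basal keratinocytes, and 4 of 5 melanocyte markers also stood higher in E9 epithelium, and their part in these carrier changes was not tested.

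Of the glutamine and glutamate enzymes, GLUL, which makes glutamine, was higher in mesenchyme. It measured 17 and 16.9 RPKM in E9 mesenchyme, against 0.958 and 1.40 RPKM in E9 epithelium (log2 difference 3.05 ± 0.13, adjusted p = 6.98e-08), and 7.91 and 8.75 RPKM in E7 mesenchyme, against 2.21 and 2.03 RPKM in E7 epithelium (log2 difference 1.58 ± 0.13, adjusted p = 5.54e-06). It rose with stage in mesenchyme (log2 change 0.95 ± 0.13, adjusted p = 0.000518). Of the 6 genes, epithelium had 2 rises and 2 falls and mesenchyme had 1 rise and 4 falls. The shares over all genes were 18.6% and 15.9% in epithelium. In mesenchyme they were 18.2% and 21.6%. The 2 rises in epithelium were 0 without E7 epithelium II and 1 without E7 epithelium I or E9 epithelium I. The 2 falls there were 0 without E7 epithelium I and 1 without any other library but those of E9 mesenchyme, and the 4 falls in mesenchyme were 2 without E7 mesenchyme I.

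Across the set, 5 carriers rose with stage in both tissues (SLC2A3, SLC3A1, SLC6A6, SLC6A9 and SLC6A15) and SLC38A10 fell in both. SLC7A11 and SLC38A6 fell in epithelium and rose in mesenchyme, and SLC38A11 rose in epithelium and fell in mesenchyme. Among all of these, only SLC6A15 and SLC38A10 kept both calls in every alternative. The mesenchymal fall of SLC38A11 (log2 change -0.43 ± 0.15, adjusted p = 0.0463) took place under 1 RPKM and was lost without E7 mesenchyme I or II, E9 epithelium I or II or E9 mesenchyme I or II (adjusted p between 0.0593 and 0.155) and with no filter, equal sum scaling, median-ratio scaling or a replicate block (adjusted p between 0.0513 and 0.0829). A further 8 were called as rising and 5 as falling in epithelium alone, 4 as rising and 7 as falling in mesenchyme alone, and 12 in neither. How many of all genes show each of these patterns was not computed, so the counts have no background beside them. A call in 1 tissue does not show a difference between tissues, which was called in 17 carriers.

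Between tissues, 9 carriers were higher in mesenchyme at both stages and 13 were lower at both. The 9 include SLC6A11 and SLC16A4, and the 13 include SLC1A1, SLC5A1, SLC5A11 and SLC38A11. These carriers passed the filter through 1 tissue alone, so some difference between tissues was set by the filter. SLC6A17 and SLC38A6 were higher in mesenchyme at E9 and lower at E7. SLC1A3, SLC38A2 and SLC38A4 were lower in mesenchyme at E9 and higher at E7. Of these 5, SLC38A4 had a log2 difference of -0.68 at E9 (adjusted p = 0.00104) and 0.56 at E7 (adjusted p = 0.00407). Of the same 5, only SLC38A6 and SLC38A4 kept both calls in every alternative that tested them. The alternatives that ended a call of the others are given above. The tissue comparisons and the stage comparisons share libraries, so these counts are not independent of each other. The shares of all genes with these patterns were not computed, so the counts describe the carriers without a background.

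**Figure D5:**
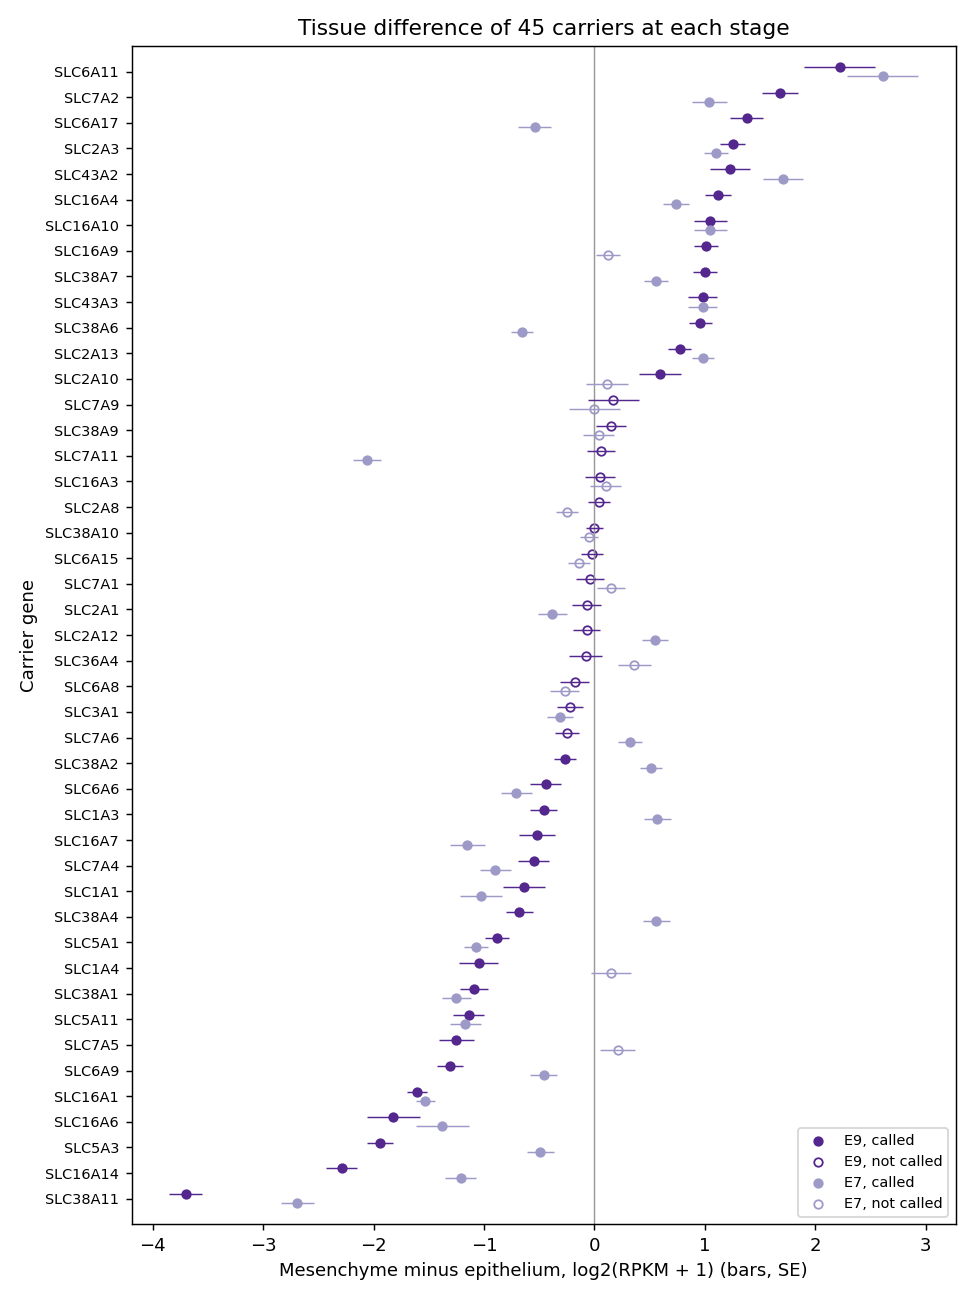
Each row is 1 of the 45 tested carriers, with the difference mesenchyme minus epithelium in log2(RPKM + 1) at E9 (dark) and E7 (light) on the horizontal axis. Filled points passed the test and bars give the SE. SLC38A11 lies lowest at both stages (-3.70 and -2.69) and SLC6A11 highest at both (2.22 and 2.61). Both passed the filter through 1 tissue alone.

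The 27 carriers not tested were low in all groups. Of these, 22 stayed under 1 RPKM in every library, and 8 of the 22 stayed under 0.1 RPKM. The families differed in this respect, with 10 of 16 reported SLC6 and 5 of 8 SLC5 genes not tested but 1 of 9 SLC38 genes and 2 of 10 reported SLC16 genes. The 8 lowest were SLC1A6, SLC2A2, SLC5A8, SLC5A12, SLC6A18, SLC6A19, SLC6A20 and SLC7A14, among them the liver glucose carrier SLC2A2 and the gut and kidney amino acid carriers SLC6A18, SLC6A19 and SLC6A20. The other 14 of the 22, which include SLC1A7, SLC2A6, SLC2A9, SLC5A9, SLC5A10, SLC6A2, SLC6A5, SLC6A12, SLC6A13, SLC7A10, SLC16A5, SLC16A12 and SLC38A5, had a highest library value between 0.138 and 0.805 RPKM. Of the 5 that passed 1 RPKM in a single library, SLC1A2, a glutamate carrier of astrocytes, was highest at 0.719 and 2.0 RPKM in E9 mesenchyme. SLC6A7, a proline carrier, had 1.21 and 0.759 RPKM in E9 mesenchyme and 0.560 and 0.579 RPKM in E7 mesenchyme and was listed at 0 in 3 of 4 epithelial libraries. SLC6A4, the serotonin carrier, passed it in E9 epithelium II (0.513 and 1.04 RPKM in E9 epithelium). SLC6A14 had 1.60 and 0.645 RPKM in E9 mesenchyme, 0.925 and 0.581 RPKM in E7 mesenchyme, 0.0842 and 0.124 RPKM in E9 epithelium and 0.0254 and 0 RPKM in E7 epithelium. Among the 14, SLC5A7, the choline carrier of cholinergic neurons, had 0.185 and 0.126 RPKM in E9 mesenchyme and 0.704 and 0.458 RPKM in E7 mesenchyme and was listed at 0 in all 4 epithelial libraries. Without read counts, a level of 0 says only that the gene is listed at 0.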

How the data were processed

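Dorsal skin RNA of the 8 libraries was sequenced by the authors as 50-base single-end reads, trimmed and mapped to galGal4 with TopHat2 in Partek software, whose versions are not given in the sources used here. The deposited table holds RPKM values computed by the authors in Partek, 1 row per library, with a count of alignments per library and no read counts per gene. These values were used as deposited.

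Carriers were taken by gene name. Of the 74 found, 2 are not reported here. They stayed in the fit over all genes and are left out of the counts, sums and plots of carriers. Of the 72, 70 matched a symbol in the RefSeq table for GRCg7b, which was used only for names and neighbours, since the build differs. The members and gene lists were chosen with earlier results of these data known. Values of log2(RPKM + 1) were tested two-sided with limma 3.58.1 in R 4.3.3 (group means, moderated variance with trend), over the 11155 genes with at least 1 RPKM in at least 2 libraries, and p was adjusted by Benjamini-Hochberg over all of them, with under 0.05 called. The procedure was tested on simulated data with known changes. With n = 2 per group, a p-value rests only on the spread within the groups of these 8 libraries. That spread was pooled over the 4 groups and moderated over all genes tested.

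Values in all libraries were given for the carrier of highest mean in each family, for the largest called changes of each comparison with a mean of at least 2 RPKM in 1 group, and for SLC3A1 with the light chains, 32 carriers in all. Others were named with their families, some after their values were seen, and up to 3 called genes were named per list, with ATF4, SESN2 and BSG named beside them after their values were seen.

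The batch numbers come from the labels. Deviations of same-numbered libraries from their group means correlated at 0.316 between the E9 tissues and 0.194 between the E7 tissues, and at -0.184 to 0.0396 across stages, so the numbers pair tissues within a stage at most. Alternatives were pseudocounts of 0.1 and 0.5, no filter, a minimum of 5 RPKM, 3 other scalings, a replicate block over all libraries or within stage, a fit of only the libraries compared, no variance trend, and each of the 8 libraries left out. The lists were cell type markers (epithelium, mesenchyme, endothelium, smooth muscle and pericyte, red cells, melanocyte, neuron and Schwann, macrophage, striated muscle) and the pathway lists named in the results. Promoter sequences were not used here.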

Additional observations from a re-analysis of the deposited data

Results flagged for a closer look

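In 17 carriers the stage change in mesenchyme minus the stage change in epithelium passed the test of that difference in limma. The 6 with the larger value in mesenchyme were SLC7A11 (log2 difference 2.12), SLC6A17 (1.92), SLC38A6 (1.61), SLC16A9 (0.90), SLC16A7 (0.64) and SLC38A7 (0.43). The 11 with the larger value in epithelium were SLC5A3 (log2 difference -1.46), SLC7A5 (-1.46), SLC38A4 (-1.24), SLC1A4 (-1.20), SLC16A14 (-1.08), SLC1A3 (-1.02), SLC38A11 (-1.0), SLC6A9 (-0.84), SLC38A2 (-0.78), SLC2A12 (-0.62) and SLC7A6 (-0.57).

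Of these differences, 13 were kept in every alternative. That of SLC16A7 (adjusted p = 0.0496) was lost without E7 epithelium I or II, E7 mesenchyme I or II, E9 epithelium I or E9 mesenchyme II (adjusted p between 0.105 and 0.157) and with a pseudocount of 0.1, a pseudocount of 0.5, no filter or quantile normalization (adjusted p between 0.0688 and 0.185, log2 as small as 0.38). That of SLC38A7 (adjusted p = 0.0444) was lost without E7 epithelium I or II, E7 mesenchyme I or II, E9 epithelium I or E9 mesenchyme I (adjusted p between 0.0797 and 0.139) and with no filter, quantile normalization or a replicate block (adjusted p = 0.0535, 0.0656 and 0.0578). That of SLC2A12 (adjusted p = 0.0175) was lost without E7 epithelium II, E7 mesenchyme I or II or E9 epithelium II (adjusted p between 0.05 and 0.0732). That of SLC7A6 (adjusted p = 0.0184) was lost without E7 epithelium II, E7 mesenchyme I or E9 mesenchyme II (adjusted p = 0.0718, 0.0672 and 0.0511) and with equal sum scaling (adjusted p = 0.0756).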

How the results depend on the processing

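No call among the carriers changed direction under any alternative run, and 85 of 122 were kept in all of them, namely 12 of 22 in epithelium, 9 of 20 in mesenchyme, 25 of 31 and 26 of 32 between tissues at E9 and E7, and 13 of 17 for the difference of stage changes. The rises in epithelium were 8 with equal sum scaling against 14, the carriers higher in E9 mesenchyme than in E9 epithelium 21 with no filter against 13 (72 carriers tested), and those higher in E7 mesenchyme than in E7 epithelium 9 with a minimum of 5 RPKM against 14 (31 carriers tested). With a library left out, the counts ranged over 7 to 15 rises and 5 to 8 falls in epithelium, 6 to 10 rises and 5 to 9 falls in mesenchyme, 12 to 13 higher and 14 to 18 lower in mesenchyme at E9, 13 to 15 higher and 15 to 19 lower at E7, and 4 to 7 and 9 to 12 for the difference of stage changes.

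With the replicate block, epithelium had 13 rises and 7 falls and mesenchyme 9 rises and 8 falls. The block ended no call of a carrier other than those given above with it. It added the call of SLC2A8 between the E7 tissues, and the block within stage also added SLC7A6 between the E9 tissues (adjusted p = 0.0401) and SLC36A4 between the E7 tissues (adjusted p = 0.0465), with 8 and 13 carriers called for the difference of stage changes. Equal sum scaling moved the median log2 difference of all genes between the E9 tissues to 0.00663 against -0.0965, and that of the difference of stage changes to 0.0954 against -0.0506. The pseudocount moved 33 called changes by over 1.5 times. Depth per gene is unknown, and with 2 libraries a group small changes could not be detected. The causes of the lost calls were not tested.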

Other observations

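Some carrier genes lie side by side in the chicken genome and were measured at different levels. SLC38A1, SLC38A2 and SLC38A4 follow each other with no other coding gene between them in the RefSeq table for GRCg7b. Within a library, SLC38A2 RPKM divided by SLC38A1 RPKM was 2.33 and 2.01 in E9 mesenchyme, 2.64 and 2.66 in E7 mesenchyme, 1.25 and 1.15 in E9 epithelium and 0.713 and 0.812 in E7 epithelium. The 8 libraries thus gave ratios over 2 in mesenchyme, a little over 1 in E9 epithelium and under 1 in E7 epithelium.

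Ratios within a library do not change when each library is scaled by a single factor, though quantile normalization can change them. For the glucose carriers, SLC2A1 RPKM divided by SLC2A3 RPKM was 1.23 and 1.23 in E9 mesenchyme, 1.58 and 1.21 in E7 mesenchyme, 3.06 and 4.27 in E9 epithelium and 4.77 and 4.94 in E7 epithelium. No test was run on these ratios.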
